A study of Mus musculus with 8 samples.

Results

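The comparison set C2C12 myotubes treated with deferoxamine (DFO) against untreated ones, in cultures that carried GFP and no PGC-1α construct. It rests on 4 of the 8 arrays of the series, chosen by their titles: the 2 of the GFP group and the 2 of the GFP plus DFO group. C2C12 is an established mouse myoblast line whose cells stop dividing and fuse into multinucleated myotubes when serum is lowered, and DFO is a chelator that binds ferric iron. Near-confluent cells went into medium with 2% dialyzed serum, and after 3 days they received an adenovirus expressing GFP, with or without 100 µM DFO, per the labels. RNA was purified 3 days after infection. Both sides therefore carried the same virus, and no uninfected culture, other dose or other time was among the groups. The 2 arrays of a group are biological duplicates, per the series' design text. The other 4 arrays came from cells with GFP-tagged PGC-1α, without and with 100 µM DFO, and they entered the estimate of the spread and the closing comparison.

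Cells build iron into haem and iron-sulfur clusters and use it in dioxygenases that need oxygen and 2-oxoglutarate. The Egln prolyl hydroxylases are such dioxygenases. They mark the alpha subunits of hypoxia-inducible factor (HIF) for breakdown through Vhl, a ubiquitin ligase subunit, and chelators that starve them of iron are a common way to stabilise HIF. Other members of the same enzyme class hydroxylate collagen and demethylate histones and RNA, and myotubes hold much of their iron in mitochondria and in myoglobin.

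DFO changed a large share of the transcripts measured. Of 18193 genes, 2140 rose (11.8%) and 2269 fell (12.5%) at an adjusted p under 0.05 in limma. This linear model moves each gene's spread partly toward that of all genes. In it 6502 genes had an unadjusted p under 0.05. A change of at least 2-fold was seen in 844 of the rises and 828 of the falls, and one of at least 8-fold in 62 and 66. The median log2 change of all genes was -0.02. Of the 4409 calls, 3624 lay among the 9096 genes above the median level, by mean log2 intensity over the 8 arrays. Bright genes were thus called more often than all genes. Most lists below hold mainly bright genes, so the shares of all genes are a low background for them. The DFO arrays did not overlap the GFP arrays in 63.9% of all genes, called or not. The calls depended on single arrays, since leaving one out left a group with 1 array: without GFP replicate 1 there were 1339 rises and 1335 falls, without GFP plus DFO replicate 1 there were 969 and 1166, and without GFP plus DFO replicate 2 there were 940 and 1129. In each of the 8 fits with 1 array left out, 837 of the rises and 951 of the falls were called the same way. For 2 arrays against 2 the smallest p of an exact permutation test is 0.333, so p-values rest on limma's model of the spread. That spread had 4 residual degrees of freedom per gene from the 8 arrays and 1.3 from pooling over genes. The arrays themselves were alike, with medians on the 4 arrays of 62.4 to 62.8 intensity units and correlations of log2 intensity across genes of 0.96 (GFP) and 0.974 (GFP plus DFO) between duplicates. The control probe sets that compare the 5' and the 3' end of a transcript, which depend on RNA quality, gave 5'/3' ratios for beta-actin of 0.921 and 0.898 with GFP and 0.868 and 0.859 with DFO, and for Gapdh of 1.17 and 1.2 against 1.12 and 1.12. The part of these ratios in the changes was not tested, and the number of arrays limits the precision of every value.

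**Figure D1:**
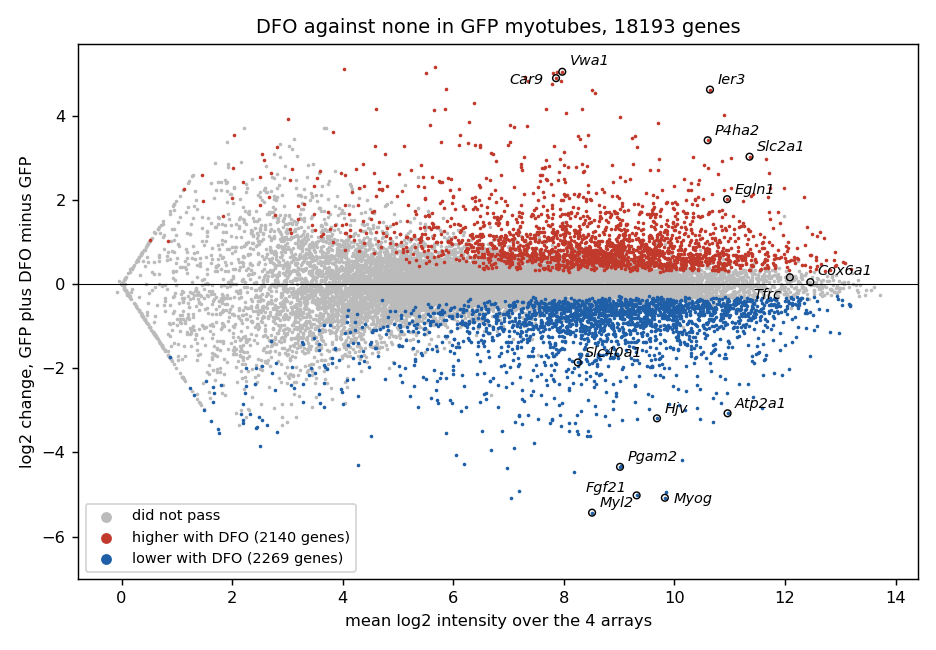
Log2 change with DFO in GFP myotubes (vertical) against the mean log2 intensity of the 4 arrays (horizontal), 1 point per gene. Red points are the 2140 genes that rose and blue points the 2269 that fell, and the labelled genes are described in the text.

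Markers of myotubes fell with DFO. The summed intensity of 8 myotube markers was 56932 and 54371 on the GFP arrays and 24832 and 25179 with DFO, and 6 of the 8 fell. The sum is carried by the brightest genes, and the median log2 change of the 8 was -1.53, with the largest fall in Myog (-5.08). The 2 that did not pass were Acta1, skeletal muscle actin (log2 change -0.26 ± 0.08, adjusted p = 0.0831), and Des, the muscle intermediate filament desmin (-0.27 ± 0.10, adjusted p = 0.123). In RNA of whole cultures, fewer myotubes and less RNA of a gene per myotube cannot be told apart.

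The largest changes among iron genes were falls. Slc40a1, the iron exporter ferroportin, read 569 and 594 intensity units with GFP and 151 and 169.8 with DFO, and Hjv, hemojuvelin, a coreceptor through which BMP signals set hepcidin in liver and which skeletal muscle also makes, read 2676 and 2309 intensity units with GFP and 287 and 259 with DFO. In both genes the DFO arrays lay far below both GFP arrays. Slc40a1 fell by 1.86 ± 0.11 (adjusted p = 0.000479) on the log2 scale and Hjv by 3.19 ± 0.12 (adjusted p = 0.00024), where ± is limma's SE here and throughout.

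Tfrc and Fth1, whose transcripts iron regulatory proteins bind, did not pass. Tfrc, the transferrin receptor, whose transcript these proteins protect when iron is scarce, read 3914 and 4334 intensity units with GFP and 4557 and 4646 with DFO. The DFO arrays lay just above the GFP arrays, and the log2 change of 0.16 ± 0.09 did not pass (adjusted p = 0.287). The array's 3 control probe sets for mouse Tfrc had changes of -0.34, -0.44 and -0.32 (adjusted p = 0.467, 0.639 and 0.632), opposite in sign and also short of the threshold. Fth1, ferritin heavy chain, whose translation the same proteins block, read 11859 and 11108 intensity units with GFP and 9181 and 9605 with DFO, a change of -0.29 ± 0.09 (adjusted p = 0.0687). The sensors and regulators of this system did not pass either: Ireb2 and Aco1, the iron regulatory proteins, had 0.55 ± 0.18 and -0.18 ± 0.13, Fbxl5, which degrades them when iron is ample, 0.87 ± 0.25, and Ncoa4, the ferritin receptor of autophagy, -0.01 ± 0.10 (adjusted p from 0.0635 to 0.972). The hepcidin gene Hamp had -0.29 ± 0.13 (adjusted p = 0.178).

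A few other iron genes rose. Cp, the copper oxidase ceruloplasmin that loads exported iron onto transferrin, went from 595 and 571 to 1449.9 and 1410.3 and rose by 1.29 ± 0.10 (adjusted p = 0.00119). Slc25a37, mitoferrin, which brings iron into mitochondria, rose by 0.77 ± 0.10 (adjusted p = 0.00586), and Lcn2, which binds iron-carrying siderophores, by 0.71 ± 0.08 (adjusted p = 0.00318). Flvcr1, a haem exporter, and Pcbp2, an iron chaperone, rose by 0.66 ± 0.14 and 0.52 ± 0.10, calls that ended for Flvcr1 without either GFP array or either GFP plus DFO array (adjusted p from 0.0558 to 0.119) and for Pcbp2 without GFP replicate 1 or either GFP plus DFO array (adjusted p from 0.0747 to 0.119). Slc11a2, the divalent metal importer DMT1, fell by 0.52 ± 0.08 (adjusted p = 0.00729), a call that ended without either GFP plus DFO array (adjusted p from 0.0548 to 0.0622). In a fit of every probe set its other 3 had -0.13 ± 0.12 (adjusted p = 0.531), -1.15 ± 0.13 (adjusted p = 0.00445) and -0.98 ± 0.20 (adjusted p = 0.0258). Tmprss6, the protease that cuts hemojuvelin, and Cisd1, an iron-sulfur protein of the mitochondrial surface, fell by 0.44 ± 0.11 and 0.48 ± 0.09, calls that ended for Tmprss6 without either GFP array, either GFP plus DFO array, either PGC-1α array or either PGC-1α plus DFO array (adjusted p from 0.0605 to 0.196) and for Cisd1 without either GFP array or either GFP plus DFO array (adjusted p from 0.0605 to 0.101). The other 15 measured genes did not pass and ran from -0.94 for Bmp6, the BMP ligand of hepcidin control, to 0.91 for Steap4, a ferric reductase (adjusted p = 0.378 and 0.0567). In all, 5 of 32 measured iron genes rose and 5 fell, with a median log2 change of 0.02. The rises numbered 3 without GFP replicate 1 or either GFP plus DFO array and the falls 2 without either GFP plus DFO array and 3 without GFP replicate 1. Those counts over 32 genes are near the shares of all genes.

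Haem breakdown rose, and several steps of haem synthesis fell. Hmox1, haem oxygenase, which breaks haem down and frees its iron, read 749 and 685 intensity units with GFP and 2202 and 2423 with DFO and rose by 1.69 ± 0.10 (adjusted p = 0.000543), with no overlap between the groups, as in 63.9% of all genes. Pgrmc1, a haem-binding membrane protein, rose by 1.15 ± 0.09 (adjusted p = 0.000984). On the synthesis side, Fech, ferrochelatase, which inserts iron into the ring, went from 1552 and 1491 to 938 and 888 and fell by 0.74 ± 0.09 (adjusted p = 0.00365). Uros, uroporphyrinogen III synthase, fell by 1.23 ± 0.12 (adjusted p = 0.00214) by its brightest probe set (adjusted p = 0.217 with the mean of its probe sets), and Alas1, the enzyme of the first step, by 0.65 ± 0.09 (adjusted p = 0.00713), a call that ended without GFP plus DFO replicate 1 (adjusted p = 0.0582). Of 20 measured genes 4 rose and 7 fell, against 2 and 2 called in all 8 fits with an array left out. The other rises were Cpox, a synthesis enzyme (0.50 ± 0.13), and Hmox2, the constitutive haem oxygenase (0.40 ± 0.08), which ended for Cpox without GFP replicate 2, either GFP plus DFO array, either PGC-1α array or either PGC-1α plus DFO array (adjusted p from 0.0652 to 0.188) and for Hmox2 without either GFP array, either GFP plus DFO array or either PGC-1α array (adjusted p from 0.0532 to 0.145). The rises numbered 2 without GFP replicate 2, either GFP plus DFO array or either PGC-1α array and the falls numbered 2 without GFP plus DFO replicate 1, 3 without GFP replicate 1 or GFP plus DFO replicate 2 and 4 without GFP replicate 2.

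Among genes that assemble iron-sulfur clusters, 10 of 22 fell and 1 rose, with a median of -0.29. 5 of the falls held in all 8 fits, and the falls numbered 5 without GFP replicate 1 or either GFP plus DFO array. Nfu1, a late carrier that hands clusters to mitochondrial enzymes, read 2013 and 2033 intensity units with GFP and 797 and 779.9 with DFO and fell by 1.36 ± 0.08 (adjusted p = 0.000551). Iscu, the scaffold on which clusters form, read 2407 and 2298 intensity units with GFP and 1438 and 1432 with DFO and fell by 0.71 ± 0.08 (adjusted p = 0.00285). The cytosolic assembly factors Nubp1 and Ciao3 fell by 0.97 ± 0.11 (adjusted p = 0.00338) and 0.77 ± 0.10 (adjusted p = 0.00513). Both DFO values of Nfu1 and Iscu lay well below the GFP values. Ciapin1, also of the cytosolic machinery, rose by 0.44 ± 0.08, a call that ended without either GFP array or either GFP plus DFO array (adjusted p from 0.0509 to 0.101).

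The oxygen-sensing genes that feed back on HIF rose. Egln1, the main HIF prolyl hydroxylase, read 1029 and 945 intensity units with GFP and 3955 and 4013 with DFO and rose by 2.01 ± 0.09 (adjusted p = 0.0003), and its relative Egln3 read 1364 and 1360.2 intensity units with GFP and 3504 and 3292 with DFO and rose by 1.32 ± 0.09 (adjusted p = 0.000642). Vhl went from 334 and 357 to 737 and 757, a rise of 1.11 ± 0.11 (adjusted p = 0.00247). The groups did not overlap in any of the 3, as in 63.9% of all genes. Of the HIF subunits, Hif1a rose by 0.50 ± 0.08 (adjusted p = 0.00908), a call that ended without GFP replicate 1 or either GFP plus DFO array (adjusted p from 0.0502 to 0.0687), and Hif3a and the third hydroxylase, Egln2, rose by 0.55 ± 0.12 and 0.32 ± 0.08, calls that ended for Hif3a without either GFP array or either GFP plus DFO array (adjusted p from 0.0962 to 0.134) and for Egln2 without either GFP array, either GFP plus DFO array or either PGC-1α array (adjusted p from 0.086 to 0.193). Epas1, the HIF-2α gene, had -0.77 ± 0.25 (adjusted p = 0.0839), Arnt, the shared beta subunit, -0.04 ± 0.15 (adjusted p = 0.871), and Hif1an, the asparaginyl hydroxylase, -0.09 ± 0.09 (adjusted p = 0.544). So 6 of 11 measured genes rose and 0 fell. The rises numbered 3 without GFP replicate 1 or either GFP plus DFO array.

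Targets of HIF rose as a group: 27 of 31 rose, 26 of them in all 8 fits, and the median change was 2.01 against -0.02 for all genes. The exception was Stc2, stanniocalcin 2, which fell by 0.75 ± 0.12 (adjusted p = 0.0089), a call that ended without either GFP plus DFO array (adjusted p from 0.0603 to 0.0634). Below are the 250 bases before the start of the 4 most raised genes among HIF targets and oxygen sensors whose promoter window holds ACGTG, the core letters to which HIF binds, on either strand. They come from RefSeq on GRCm38.p6 and run 5′ to 3′ on the gene's strand, with ACGTG or its reverse complement CACGT in capitals. Car9 encodes a carbonic anhydrase on the cell surface (chr4:43506776-43507025, + strand), Ankrd37 an ankyrin repeat protein (chr8:45999851-46000100, - strand), P4ha2 a catalytic subunit of collagen prolyl hydroxylase (chr11:54100674-54100923, + strand) and Slc2a1 the glucose transporter GLUT1 (chr4:119108495-119108744, + strand).
Car9: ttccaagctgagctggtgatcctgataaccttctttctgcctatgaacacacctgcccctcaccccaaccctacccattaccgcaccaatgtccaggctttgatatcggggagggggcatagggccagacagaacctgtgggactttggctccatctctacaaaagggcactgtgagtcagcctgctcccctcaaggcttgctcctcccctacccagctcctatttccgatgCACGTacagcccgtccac
Ankrd37: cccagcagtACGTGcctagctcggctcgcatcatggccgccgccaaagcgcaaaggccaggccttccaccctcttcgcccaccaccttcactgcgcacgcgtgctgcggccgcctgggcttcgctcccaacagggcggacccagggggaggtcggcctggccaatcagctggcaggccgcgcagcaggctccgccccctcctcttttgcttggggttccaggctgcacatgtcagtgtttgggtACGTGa
P4ha2: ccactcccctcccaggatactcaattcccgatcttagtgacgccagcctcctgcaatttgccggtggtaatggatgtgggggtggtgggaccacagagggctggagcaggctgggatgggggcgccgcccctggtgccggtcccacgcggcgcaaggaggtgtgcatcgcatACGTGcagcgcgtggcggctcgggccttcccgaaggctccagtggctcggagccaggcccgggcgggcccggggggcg
Slc2a1: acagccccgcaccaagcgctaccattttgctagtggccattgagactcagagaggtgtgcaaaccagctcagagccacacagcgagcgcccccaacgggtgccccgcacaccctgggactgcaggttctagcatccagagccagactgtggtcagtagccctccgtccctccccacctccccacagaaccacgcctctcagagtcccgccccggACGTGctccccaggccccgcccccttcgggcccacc

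The match lies 18 bases before the start in Car9, 241 and 6 before it in Ankrd37, 78 before it in P4ha2 and 36 before it in Slc2a1. Car9 read 49.2 and 37 intensity units with GFP and 1288 and 1239 with DFO, and rose by 4.89 ± 0.31 (adjusted p = 0.000629). Ankrd37 read 73.2 and 74.4 intensity units with GFP and 1851 and 1764 with DFO, a rise of 4.61 ± 0.12 (adjusted p = 0.000139). P4ha2 went from 449 and 504 to 4973 and 5174 and rose by 3.41 ± 0.10 (adjusted p = 0.000139), and Slc2a1 from 945 and 897 to 7505 and 7468, by 3.02 ± 0.09 (adjusted p = 0.000147). On each of the 4 genes both DFO arrays were over 7 times the higher GFP array. Tmem45a, a transmembrane protein whose window lacks the letters, rose by 4.74 ± 0.10 (adjusted p = 0.00011), and Car12, another carbonic anhydrase without them, by 4.15 ± 0.32 (adjusted p = 0.00103) by its brightest probe set (adjusted p = 0.206 with the mean of its probe sets). The letters were in the window, from 250 bases before to 50 after the start, of 20 of 28 HIF targets with a RefSeq window (71.4%), 15 of 26 genes of glycolysis (57.7%) and 18 of 43 genes that rose at least 8-fold (41.9%). They were in 10 of 45 genes that fell at least 8-fold (22.2%) and in 26.1% of the 14452 tested genes with a window, a gene counting once where any of its windows held them. The HIF targets were listed from general knowledge, and some are known for such sites. A match describes the letters only.

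Some demethylases that need iron and 2-oxoglutarate rose. Kdm3a, which removes methyl groups from lysine 9 of histone H3, read 681 and 661 intensity units with GFP and 2176 and 2144 with DFO and rose by 1.69 ± 0.08 (adjusted p = 0.000363). Kdm4b, a demethylase of the same lysine, rose by 1.63 ± 0.22 (adjusted p = 0.00553), Alkbh5, which removes N6-methyladenosine from RNA, by 1.62 ± 0.11 (adjusted p = 0.000789), and Jmjd6, a lysyl hydroxylase of splicing factors, by 1.37 ± 0.08 (adjusted p = 0.000478). Both Kdm3a values with DFO were over 3 times those with GFP. Of 30 demethylases 9 rose and 6 fell, with a median of 0.21. The rises numbered 4 without GFP plus DFO replicate 1 and 5 without GFP plus DFO replicate 2, and the falls 3 without GFP replicate 1 or either GFP plus DFO array.

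Collagen-modifying enzymes rose in 9 of 19 cases and fell in 2, and 8 of the rises held in all 8 fits. Beside P4ha2, the lysyl hydroxylase Plod2, which prepares collagen for crosslinks, read 687 and 743 intensity units with GFP and 4433 and 4353 with DFO and rose by 2.62 ± 0.11 (adjusted p = 0.00026). Plod1 rose by 1.67 ± 0.11 (adjusted p = 0.000753), while its second, dim probe set had 0.07 ± 0.16 (adjusted p = 0.811), and P4ha1 by 1.59 ± 0.09 (adjusted p = 0.000502). Lox, lysyl oxidase, itself a copper enzyme that starts the crosslinks, read 1214 and 1094 intensity units with GFP and 8747 and 9163 with DFO, a rise of 2.96 ± 0.09 (adjusted p = 0.000147). All Lox values with DFO were over 7 times those with GFP. The falls were Loxl1, a relative of Lox (-1.48 ± 0.13, adjusted p = 0.00139, and adjusted p = 0.249 with the mean of its probe sets), and Serpinh1, the collagen chaperone (-0.46 ± 0.10), whose call ended without GFP replicate 1, either GFP plus DFO array or either PGC-1α array (adjusted p from 0.0653 to 0.142). The median change was 0.32 among these enzymes and 0.32 among the collagen chains. Of the chains 6 of 31 rose and 3 fell, against 11.8% and 12.5% of all genes. The rises numbered 3 without GFP plus DFO replicate 1. All 3 chains of type V rose, Col5a2 from 1884 and 2113 to 5874 and 5798, by 1.55 ± 0.09 (adjusted p = 0.0005), Col5a1 by 1.09 ± 0.12 (adjusted p = 0.00285) and Col5a3 by 2.09 ± 0.14 (adjusted p = 0.000743) by its brightest probe set (adjusted p = 0.081 with the mean of its probe sets). Col6a2 of type VI fell by 1.69 ± 0.10 (adjusted p = 0.000504).

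Within glycolysis the isoforms parted. Of 28 genes 19 rose and 7 fell, 17 and 7 of them in all 8 fits. Several of the falls were the muscle forms of enzymes whose other measured forms rose. Pgam2, the muscle phosphoglycerate mutase, read 2485 and 2187 intensity units with GFP and 134 and 98.5 with DFO and fell by 4.34 ± 0.21 (adjusted p = 0.000335), while Pgam1, the form of most tissues, read 2167 and 1958 intensity units with GFP and 6718 and 6855 with DFO and rose by 1.72 ± 0.09 (adjusted p = 0.0004). Eno3, muscle enolase, went from 6681 and 7115 to 1093 and 1063 and fell by 2.68 ± 0.09 (adjusted p = 0.000161). Eno2, known as the neuronal enolase, went from 164 and 199.7 to 1947 and 2045 and rose by 3.46 ± 0.13 (adjusted p = 0.000233). Eno1, another enolase, had no probe set that names it alone and was left out. Pfkm, muscle phosphofructokinase, fell by 1.75 ± 0.08 (adjusted p = 0.000291), whereas the liver and platelet forms Pfkl and Pfkp rose by 2.14 ± 0.12 (adjusted p = 0.000418) and 1.37 ± 0.11 (adjusted p = 0.00124). Aldoc, the brain aldolase, rose by 3.76 ± 0.22 (adjusted p = 0.000515). Ldhb, the lactate dehydrogenase subunit of oxidative tissues, fell by 1.27 ± 0.12 (adjusted p = 0.00185), and Ldha rose by 0.53 ± 0.08 (adjusted p = 0.00992), a call that ended without GFP plus DFO replicate 2 (adjusted p = 0.0746). Slc2a4, the insulin-regulated transporter GLUT4, read 917 and 916 intensity units with GFP and 754 and 876 with DFO, a change of -0.17 ± 0.16 (adjusted p = 0.511), while its other probe set had -2.32 ± 0.10 (adjusted p = 0.000529) in a fit of every probe set, so the array gives no single value for it.

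**Figure D2:**
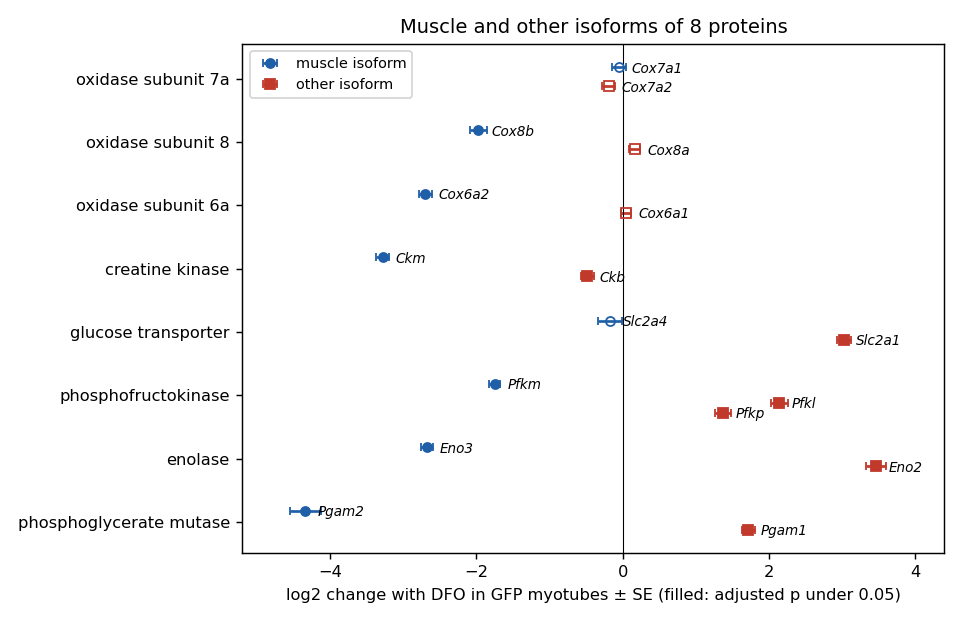
Log2 change with DFO in GFP myotubes ± limma SE (horizontal) for the muscle isoform (circles) and other isoforms (squares) of 8 proteins; filled symbols passed an adjusted p of 0.05. The muscle forms of phosphoglycerate mutase, enolase and phosphofructokinase fell while the other forms shown rose. In oxidase subunits 6a and 8 the muscle form alone passed.

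Of 21 transcripts for energy buffers 10 fell and 5 rose. Ckm, the muscle creatine kinase, read 5465 and 4969 intensity units with GFP and 531 and 541 with DFO and fell by 3.28 ± 0.09 (adjusted p = 0.000139), and Pygm, muscle glycogen phosphorylase, read 1609.6 and 1632 intensity units with GFP and 174 and 174 with DFO and fell by 3.22 ± 0.10 (adjusted p = 0.000161). The DFO arrays of both stood far below the GFP arrays. A second, dim probe set of Ckm had 0.02 ± 0.19 (adjusted p = 0.966). Ak4, a mitochondrial adenylate kinase, instead rose by 3.97 ± 0.10 (adjusted p = 0.000135), from 130.1 and 132 to 2044 and 2073, and Gbe1, the glycogen branching enzyme, by 2.97 ± 0.10 (adjusted p = 0.0002), from 319 and 282 to 2351 and 2348. Ckb, the brain form of creatine kinase, fell by 0.49 ± 0.09, a call that ended without either GFP array or either GFP plus DFO array (adjusted p from 0.0587 to 0.105). The median was -0.51, and the rises numbered 3 without GFP replicate 2 or GFP plus DFO replicate 2.

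Respiratory chain transcripts fell whether or not their proteins hold iron. Of 11 genes for subunits with iron-sulfur clusters or haem 10 fell (median -0.71), and of 56 without iron 44 fell and 1 rose (median -0.51). No test compared the medians of the lists. The falls of the first numbered 5 without GFP plus DFO replicate 1 and 6 without GFP replicate 2 or GFP plus DFO replicate 2, and those of the second 19 without GFP plus DFO replicate 2, 20 without GFP plus DFO replicate 1 and 24 without GFP replicate 1. Among the first, the complex I subunits Ndufs8 and Ndufv1 went from 4602 and 3977 to 1529 and 1589 and from 3312 and 3099 to 1549 and 1619.8, falls of 1.46 ± 0.11 (adjusted p = 0.000891) and 1.02 ± 0.09 (adjusted p = 0.00149). Ndufv2 fell by 1.00 ± 0.08 (adjusted p = 0.00101). Among the second, Ndufb2 fell by 1.38 ± 0.09 (adjusted p = 0.000587), Ndufb10 by 1.21 ± 0.10 (adjusted p = 0.00117) and Ndufa5 by 1.16 ± 0.10 (adjusted p = 0.00124), all of complex I. The single rise was Ndufv3 (0.54 ± 0.08), also of complex I, a call that ended without either GFP plus DFO array (adjusted p from 0.0555 to 0.0675).

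Cytochrome c oxidase showed the split of isoforms again. The muscle form Cox6a2 read 4357 and 4106 intensity units with GFP and 635 and 669.5 with DFO and fell by 2.70 ± 0.08 (adjusted p = 0.000147), and Cox8b read 1049 and 1087 intensity units with GFP and 298 and 248 with DFO and fell by 1.97 ± 0.11 (adjusted p = 0.000479). Their counterparts of most tissues, Cox6a1 and Cox8a, had changes of 0.05 ± 0.07 and 0.16 ± 0.08 (adjusted p = 0.721 and 0.224). The third muscle form, Cox7a1, read 243 and 243 intensity units with GFP and 226 and 245 with DFO, with overlapping groups (-0.05 ± 0.09, adjusted p = 0.766). Cox7a2, Cox7a2l, Cox4i1 and Cox4i2 had -0.19 ± 0.09, 0.19 ± 0.08, -0.27 ± 0.08 and 0.10 ± 0.08 (adjusted p from 0.0693 to 0.464). Cox6b2, a testis form, was dim, at 17.7 and 7.44 intensity units with GFP and 1 and 6.12 with DFO (adjusted p = 0.157). Cox6b1 fell by 0.40 ± 0.08, a call that ended without either GFP array, either GFP plus DFO array or either PGC-1α array (adjusted p from 0.0504 to 0.119). In all, 3 of 11 passed, each a fall.

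The regulators of muscle differentiation fell without exception among those called: 17 of 24 fell and 0 rose, with 12 of the falls in all 8 fits and a median of -1.06. Myog, myogenin, the basic helix-loop-helix factor that drives terminal differentiation, read 5223 and 5330.2 intensity units with GFP and 174 and 141 with DFO, and Myf6, its relative of mature fibres, 306 and 342 intensity units with GFP and 21.3 and 13.1 with DFO. Myod1, the factor that commits myoblasts, read 1310.1 and 1366 intensity units with GFP and 165 and 175 with DFO. In all 3 the DFO arrays stood far below both GFP arrays. Myog fell by 5.08 ± 0.13 (adjusted p = 0.000139), Myf6 fell by 4.28 ± 0.28 (adjusted p = 0.000661) and Myod1 fell by 2.98 ± 0.15 (adjusted p = 0.000376), the last by its brightest probe set (adjusted p = 0.125 with the mean of its probe sets). Mef2c, a partner of these factors, fell by 2.42 ± 0.12 (adjusted p = 0.000343), and Mymx, a micropeptide that completes myoblast fusion, fell by 3.21 ± 0.16 (adjusted p = 0.000363). Myf5 fell by 1.83 ± 0.35 (adjusted p = 0.0186), a call that ended without either GFP array or either GFP plus DFO array (adjusted p from 0.0687 to 0.0976).

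The promoters of 2 genes with large falls hold letters that these factors are known to bind. The 250 bases before the start of Myog (chr1:134289754-134290003, + strand) carry CANNTG, the E-box that myogenic helix-loop-helix factors bind, in capitals. Those of Pgam2 (chr11:5803797-5804046, - strand) carry in capitals the E-box CAGCTG and the MEF2 consensus, and Pgam2 was the gene with the largest fall among those above the median level that held both. Both are RefSeq sequences on GRCm38.p6, 5′ to 3′ on the gene's strand.
Myog: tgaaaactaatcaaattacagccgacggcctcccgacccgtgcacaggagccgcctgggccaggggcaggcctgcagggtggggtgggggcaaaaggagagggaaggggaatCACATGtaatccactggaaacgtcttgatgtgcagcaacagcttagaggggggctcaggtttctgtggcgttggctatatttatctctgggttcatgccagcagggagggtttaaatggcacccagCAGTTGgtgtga
Pgam2: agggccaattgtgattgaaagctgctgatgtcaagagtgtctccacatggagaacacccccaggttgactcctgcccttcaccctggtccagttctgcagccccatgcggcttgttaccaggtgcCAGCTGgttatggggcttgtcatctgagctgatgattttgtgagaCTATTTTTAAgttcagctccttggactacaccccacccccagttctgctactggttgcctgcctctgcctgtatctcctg

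The E-boxes of Myog lie 138 and 12 bases before the start, and such letters are common, in 70.9% of all tested genes with a window. In Pgam2 the E-box lies 125 and the MEF2 match 80 bases before the start. CAGCTG, which reads the same on both strands, was in 21 of 45 genes with a window that fell at least 8-fold (46.7%). It was in 13 of 43 of those that rose as much (30.2%) and in 18.8% of all tested genes with a window. The MEF2 consensus was in 7 (15.6%), 1 (2.33%) and 2.51%. Letters alone do not show that a factor binds, and no test was made of these shares. Among the 8-fold falls that hold CAGCTG are Myl2, Fgf21, Mybph, Ckm, Pygm and Atp2a1, chosen here after their values were seen.

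Inhibitors of differentiation rose in part, 8 of 29, and 4 fell. Id2, which sequesters the partners of myogenic factors, read 144 and 117 intensity units with GFP and 985 and 836 with DFO and rose by 2.81 ± 0.15 (adjusted p = 0.000427), and Snai1, a repressor that competes for E-boxes, read 90.1 and 84.8 intensity units with GFP and 630.4 and 733 with DFO and rose by 2.96 ± 0.14 (adjusted p = 0.000335). In a fit of every probe set, others of Id2 had 2.77 ± 0.18 (adjusted p = 0.00119) and -0.12 ± 0.14 (adjusted p = 0.627). Twist2, another inhibitory helix-loop-helix factor, rose by 2.16 ± 0.18 (adjusted p = 0.00125). Bhlhe40, a repressor of the same class, rose by 2.47 ± 0.08 (adjusted p = 0.000171). The Id family was not uniform: Id3 read 272 and 204 intensity units with GFP and 69.6 and 55.3 with DFO and fell by 1.92 ± 0.18 (adjusted p = 0.0019), and the rise of Id1 (0.50 ± 0.12) ended without either GFP array, either GFP plus DFO array or either PGC-1α array (adjusted p from 0.073 to 0.182). The rises of the list numbered 5 without GFP replicate 1 or either GFP plus DFO array.

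**Figure D3:**
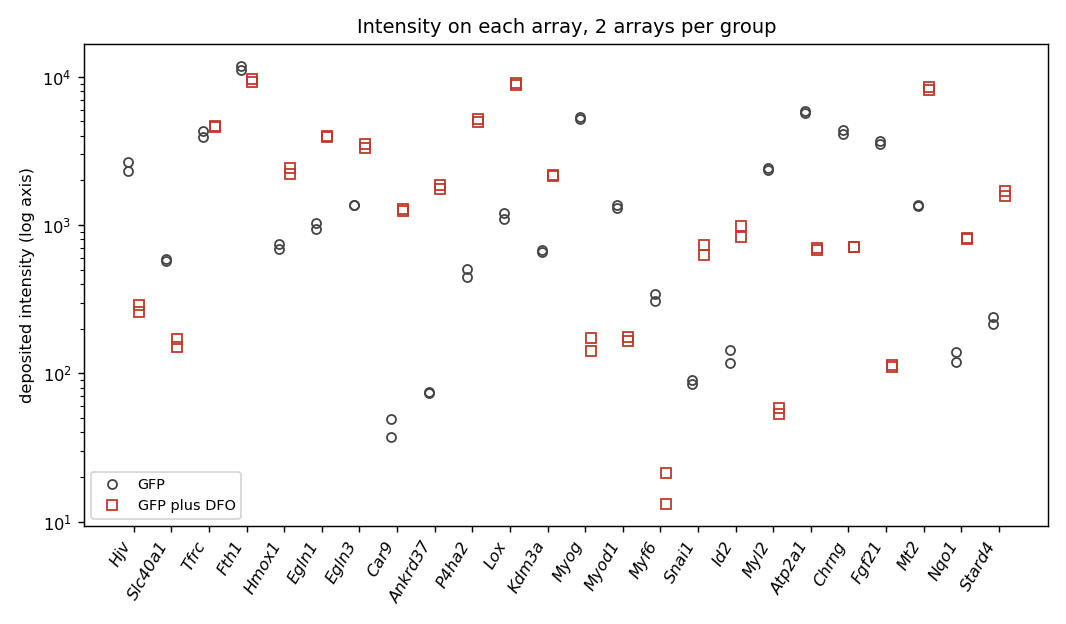
Deposited intensity (log axis) of 24 genes on the 2 GFP arrays (circles) and the 2 GFP plus DFO arrays (squares). Duplicates lie close together, and except for Tfrc and Fth1 the groups stand well apart.

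Structural genes of the contractile apparatus fell widely. Among myosin and troponin isoforms 21 of 26 fell and 0 rose, 20 of them in all 8 fits, with a median of -1.51. Myl2, the slow and cardiac regulatory light chain, read 2346 and 2444 intensity units with GFP and 53.3 and 57.9 with DFO and fell by 5.43 ± 0.10 (adjusted p = 0.00011), the largest fall among genes above the median level. Myh4, the fastest adult heavy chain, fell by 2.98 ± 0.13 (adjusted p = 0.00027), Myh8, the perinatal one, by 2.85 ± 0.15 (adjusted p = 0.000386), and Myl4, the embryonic light chain, by 2.94 ± 0.09 (adjusted p = 0.000145). A second probe set of Myl4 had 0.03 ± 0.19 (adjusted p = 0.943).

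Genes that couple excitation to calcium release fell in large part: 17 of 20 fell and 0 rose (median -1.61). Atp2a1, the calcium pump of fast fibres, read 5881 and 5676 intensity units with GFP and 681 and 695 with DFO, and Stac3, an adaptor of the calcium channel at the triad, 638 and 660.3 intensity units with GFP and 48.6 and 46 with DFO. Atp2a1 fell by 3.07 ± 0.08 (adjusted p = 0.000139) and Stac3 fell by 3.78 ± 0.18 (adjusted p = 0.000316). The channel subunits Cacnb1 and Cacng1 fell by 2.20 ± 0.12 (adjusted p = 0.000394) and 2.18 ± 0.09 (adjusted p = 0.000263). At the neuromuscular junction 9 of 16 fell. Chrng, the fetal subunit of the acetylcholine receptor, read 4391 and 4106 intensity units with GFP and 710.5 and 707 with DFO and fell by 2.58 ± 0.09 (adjusted p = 0.000211), and Chrnb1 fell by 2.00 ± 0.18 (adjusted p = 0.00159). Rapsn, which clusters the receptor, fell by 1.85 ± 0.13 (adjusted p = 0.000799), and Lrp4, the agrin receptor, fell by 1.95 ± 0.10 (adjusted p = 0.000364). The 1 rise was Ache, acetylcholinesterase (1.47 ± 0.22), a call that ended without GFP plus DFO replicate 2 (adjusted p = 0.0595).

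Cytoskeletal genes of smooth muscle and other cells were mixed, with 6 rises and 5 falls among 25, against 11.8% and 12.5% of all genes. The rises numbered 3 without GFP plus DFO replicate 1. Acta2, smooth muscle actin, which immature myotubes also make, went from 8435 and 8252 to 1926 and 1829.6 and fell by 2.15 ± 0.08 (adjusted p = 0.000233), the actin-binding transgelin, Tagln, by 1.91 ± 0.11 (adjusted p = 0.000478) and the light chain Myl9 fell by 3.12 ± 0.15 (adjusted p = 0.000316). The other 2 probe sets of Acta2, both dim, had -2.06 ± 0.29 (adjusted p = 0.00947) and 0.08 ± 0.64 (adjusted p = 0.952). Nefl, the light neurofilament, rose by 1.49 ± 0.11 (adjusted p = 0.000984).

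Few genes of division passed. Among DNA replication genes 4 of 28 rose and 1 fell, and among mitosis genes 1 and 1 of 19, shares near or below those of all genes. Only 15 of the 28 and 4 of the 19 were above the median level, and dim genes passed less often. The low counts therefore do not show that these genes were unchanged. Rrm1, the large subunit of ribonucleotide reductase, read 725 and 717 intensity units with GFP and 205 and 205 with DFO and fell by 1.81 ± 0.13 (adjusted p = 0.000816) by its brightest probe set (adjusted p = 0.0831 with the mean of its probe sets). Rrm2, the small subunit, which holds the iron, read 653 and 598 intensity units with GFP and 519 and 489 with DFO. Its change of -0.31 ± 0.09 did not pass (adjusted p = 0.0689). In a fit of every probe set, others of Rrm2 had -0.48 ± 0.09 (adjusted p = 0.0222) and -2.57 ± 1.12 (adjusted p = 0.195). Pcna, the sliding clamp, rose by 0.85 ± 0.08 (adjusted p = 0.00223), and the primase subunit Prim1 by 0.98 ± 0.09 (adjusted p = 0.00199) by its brightest probe set (adjusted p = 0.192 with the mean of its probe sets). The rises of Gmnn, geminin, which blocks relicensing, and Pold1, a polymerase subunit (2.35 ± 0.38 and 0.99 ± 0.22) ended for Gmnn without either GFP plus DFO array (adjusted p from 0.0625 to 0.0654) and for Pold1 without GFP replicate 1, either GFP plus DFO array, either PGC-1α array or either PGC-1α plus DFO array (adjusted p from 0.0521 to 0.135). The replication rises numbered 2 without either GFP plus DFO array. The mitosis calls, the kinesin Kif20a (0.91 ± 0.23) and the kinase Cdk1 (-0.43 ± 0.10), ended for Kif20a without GFP replicate 1, either GFP plus DFO array, either PGC-1α array or either PGC-1α plus DFO array (adjusted p from 0.0572 to 0.185) and for Cdk1 without either GFP array, either GFP plus DFO array or either PGC-1α array (adjusted p from 0.0616 to 0.142).

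Genes of cell cycle exit and the p53 response rose in 13 of 35 cases and fell in 5. Ccng2, an atypical cyclin linked to arrest, read 539 and 664 intensity units with GFP and 4136 and 3991 with DFO and rose by 2.76 ± 0.13 (adjusted p = 0.0003), and Trp53inp1, a p53 target, rose by 1.62 ± 0.13 (adjusted p = 0.00117). Ccne2, a cyclin of the start of replication, rose by 2.04 ± 0.25 (adjusted p = 0.00409), while Pmaip1, the death-promoting p53 target Noxa, fell by 1.52 ± 0.10 (adjusted p = 0.000637). Cdkn1a, the p21 inhibitor that marks withdrawn myotubes, read 7055 and 6862 intensity units with GFP and 5949 and 6167 with DFO, a change of -0.20 ± 0.08 (adjusted p = 0.129). Its other probe set had -0.50 ± 0.12 (adjusted p = 0.0426) in a fit of every probe set. Ccnd1, cyclin D1, read 309 and 326 intensity units with GFP and 464 and 447 with DFO, a rise of 0.52 ± 0.11 that ended without either GFP array, either GFP plus DFO array or either PGC-1α array (adjusted p from 0.0532 to 0.136). The rises numbered 7 without either GFP plus DFO array and 8 without GFP replicate 1, and the falls 3 without GFP plus DFO replicate 1.

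The muscle ubiquitin ligases of atrophy fell. Trim63, MuRF1, read 1732 and 1661 intensity units with GFP and 402 and 364 with DFO and fell by 2.15 ± 0.19 (adjusted p = 0.00168), and its relative Trim54 fell by 1.75 ± 0.16 (adjusted p = 0.00183). Foxo3, a transcription factor that induces such ligases, rose by 1.18 ± 0.14 (adjusted p = 0.00347), and Eif4ebp1, a repressor of translation, by 0.69 ± 0.08 (adjusted p = 0.00397). Fbxo32, atrogin-1, had -0.47 ± 0.12, and the factor Foxo1 and the ligase Cblb had 0.45 ± 0.11 and 0.37 ± 0.10, calls that ended for Fbxo32 without either GFP array, either GFP plus DFO array or either PGC-1α array (adjusted p from 0.074 to 0.19), for Foxo1 without either GFP array, either GFP plus DFO array or either PGC-1α array (adjusted p from 0.0675 to 0.168) and for Cblb without either GFP array, either GFP plus DFO array, either PGC-1α array or either PGC-1α plus DFO array (adjusted p from 0.0526 to 0.214). The list held 4 rises and 4 falls among 15. The rises numbered 2 without either GFP array, either GFP plus DFO array or either PGC-1α array, and the falls 2 without GFP replicate 1 or either GFP plus DFO array.

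Secreted factors changed strongly in both directions. Fgf21, a stress hormone that muscle can release, read 3722 and 3543 intensity units with GFP and 114 and 110.0 with DFO and fell by 5.02 ± 0.23 (adjusted p = 0.0003). Fst, follistatin, which binds activin and myostatin, went from 811 and 966 to 107 and 99 and fell by 3.10 ± 0.47 (adjusted p = 0.00812), a call that ended without either GFP plus DFO array (adjusted p from 0.0511 to 0.0568). Its relative Fstl3 went the other way, from 126 and 135 to 873 and 797, and rose by 2.68 ± 0.11 (adjusted p = 0.00026). Smad7, an inhibitor inside the TGF-beta pathway, rose by 2.46 ± 0.23 (adjusted p = 0.00187). In that list 9 of 33 rose and 10 fell, and the falls numbered 6 without GFP plus DFO replicate 2. Of 21 angiogenic factors 11 rose and 4 fell, and the rises numbered 7 without either GFP plus DFO array. Pgf, placental growth factor, read 30.9 and 49.99 intensity units with GFP and 1259 and 1271 with DFO and rose by 5.01 ± 0.24 (adjusted p = 0.000322), and Apln, apelin, read 55.3 and 39.2 intensity units with GFP and 1339.8 and 1311 with DFO and rose by 4.83 ± 0.17 (adjusted p = 0.000205). Kitl, stem cell factor, rose by 2.37 ± 0.07 (adjusted p = 0.000147). In a fit of every probe set, others of Kitl had 2.52, 2.48 and 0.12 (adjusted p = 0.000699, 0.00114 and 0.669). Angpt4, a ligand of the Tie2 receptor, instead fell by 2.72 ± 0.15 (adjusted p = 0.000407). Most chemokines and cytokines did not pass, with 6 rises and 2 falls among 26, against 11.8% and 12.5% of all genes. The falls numbered 1 without GFP plus DFO replicate 2. Il33, an alarmin, rose by 2.15 ± 0.21 (adjusted p = 0.00208) and Lif, a cytokine that muscle makes, by 1.98 ± 0.21 (adjusted p = 0.00287). The probe set used for Lif was below the median level. In a fit of every probe set another of Lif had 0.01 ± 0.12 (adjusted p = 0.9755). That one was brighter with GFP, at a mean of 74.5 against 42.7. Ptx3, a pentraxin, fell by 1.33 ± 0.16 (adjusted p = 0.00393) by its brightest probe set (adjusted p = 0.374 with the mean of its probe sets), and the fall of Ccl7 (0.76 ± 0.15) ended without either GFP plus DFO array (adjusted p from 0.0679 to 0.106).

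Oxidant defence genes rose in 15 of 26 cases and fell in 4, with 10 rises in all 8 fits. Mt2, a metallothionein that binds zinc and copper, read 1368 and 1342 intensity units with GFP and 8502 and 8216 with DFO and rose by 2.62 ± 0.08 (adjusted p = 0.000147). Nqo1, a quinone reductase and standard NRF2 target, read 139 and 119.7 intensity units with GFP and 817 and 809 with DFO and rose by 2.65 ± 0.31 (adjusted p = 0.00362), and Srxn1, sulfiredoxin, rose by 2.43 ± 0.11 (adjusted p = 0.0003). Selenbp1, a selenium-binding methanethiol oxidase, rose by 3.36 ± 0.43 (adjusted p = 0.00474). Prdx3, the mitochondrial peroxiredoxin, fell by 1.23 ± 0.08 (adjusted p = 0.000703), and the falls of the list numbered 2 without GFP replicate 1 or either GFP plus DFO array. Heat shock genes fell more often than they rose, 12 against 4 of 22, and the falls numbered 6 without either GFP plus DFO array. Hspb3 and Hspb2, small heat shock proteins of muscle, fell by 3.31 ± 0.24 (adjusted p = 0.000896) and 1.05 ± 0.11 (adjusted p = 0.00251), and Hspe1, the mitochondrial co-chaperonin, by 1.36 ± 0.09 (adjusted p = 0.000606). Dnajb1, a cytosolic co-chaperone, rose by 1.09 ± 0.10 (adjusted p = 0.00162), and the rises numbered 1 without either GFP plus DFO array and 2 without either GFP array or either PGC-1α array. For mitophagy and autophagy, Bnip3, a receptor on mitochondria and a HIF target, read 1599 and 1487 intensity units with GFP and 7267 and 7661 with DFO and rose by 2.27 ± 0.09 (adjusted p = 0.00026). Map1lc3b, LC3B of autophagosome membranes, rose by 0.72 ± 0.08 (adjusted p = 0.00313) by its brightest probe set (adjusted p = 0.0711 with the mean of its probe sets), and the calls of the autophagy kinase Ulk1 (0.94 ± 0.16) and the autophagy receptor Calcoco1 (-0.79 ± 0.16) ended for Ulk1 without GFP replicate 2 or either GFP plus DFO array (adjusted p from 0.0503 to 0.076) and for Calcoco1 without either GFP array or either GFP plus DFO array (adjusted p from 0.0537 to 0.106). In that list 5 of 22 rose and 1 fell, against 11.8% and 12.5% of all genes, and all 22 were above the median level. The rises were fewer without GFP replicate 2 and fewest without either GFP plus DFO array.

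Lipid genes moved by branch. Cholesterol synthesis rose, with 19 of 26 genes up (16 in all 8 fits), 1 down and a median of 1.34. Stard4, which carries cholesterol between membranes, read 240.4 and 214 intensity units with GFP and 1694 and 1575 with DFO and rose by 2.85 ± 0.10 (adjusted p = 0.000213). The synthesis enzymes Msmo1, which needs iron, Hmgcs1 and Sqle rose by 2.27 ± 0.09 (adjusted p = 0.000263), 2.13 ± 0.10 (adjusted p = 0.0003) and 2.08 ± 0.08 (adjusted p = 0.000213). In fatty acid handling 6 rose and 6 fell of 24. Hilpda, which blocks the lipase of lipid droplets, read 229 and 214 intensity units with GFP and 3103 and 3122 with DFO and rose by 3.81 ± 0.12 (adjusted p = 0.000147). G0s2, an inhibitor of the same lipase, read 878 and 845 intensity units with GFP and 81.2 and 94.5 with DFO and fell by 3.30 ± 0.12 (adjusted p = 0.0002). The uptake genes Cd36 and Fabp3 fell by 3.38 ± 0.30 (adjusted p = 0.00161) and 2.07 ± 0.09 (adjusted p = 0.0003).

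Of the nuclear factors, Ppargc1b, PGC-1β, a coactivator of mitochondrial genes, read 644 and 472 intensity units with GFP and 105 and 56 with DFO and fell by 2.84 ± 0.33 (adjusted p = 0.00358). For Ppargc1a the probe set used was the brightest over all arrays, those of PGC-1α myotubes included. In GFP myotubes it was dim and overlapped between groups, at 28.6 and 37.3 intensity units with GFP and 26.6 and 88.1 with DFO. Its change was 0.57 ± 0.55 (adjusted p = 0.531). The gene's other probe sets were brighter with GFP, at means from 59.2 to 110.3. In a fit of every probe set they had -1.39, -0.97, -0.94 and -1.45 (adjusted p = 0.0173, 0.0204, 0.0869 and 0.0115). The mean of the gene's probe sets had -0.84 (adjusted p = 0.0276). Only the probe set used had a positive sign, and it did not pass. Ppard, a fatty acid receptor, rose by 1.59 ± 0.20 (adjusted p = 0.00449) by its brightest probe set (adjusted p = 0.0792 with the mean of its probe sets), and Nr1d1, a clock repressor that binds haem, by 1.11 ± 0.09 (adjusted p = 0.00125). Esrrb, an orphan receptor, rose by 2.04 ± 0.31 (adjusted p = 0.00796), a call that ended without either GFP plus DFO array (adjusted p from 0.052 to 0.0548) and turned to -0.16 (adjusted p = 0.807) without probe sets that may match several transcripts. The list held 5 rises and 2 falls among 25, against 11.8% and 12.5% of all genes. Its rises were fewest without either GFP plus DFO array. Amino acid transporters fell in 6 of 23 cases and rose in 1. Slc38a1 and Slc7a5, importers of glutamine and of large neutral amino acids, fell by 1.32 ± 0.10 (adjusted p = 0.00102) and 0.98 ± 0.14 (adjusted p = 0.00633), the falls of Slc7a3 and Slc7a6, importers of cationic amino acids and of both cationic and neutral ones (-1.04 ± 0.19 and -0.95 ± 0.17), ended for Slc7a3 without GFP replicate 1 or either GFP plus DFO array (adjusted p from 0.08 to 0.0872) and for Slc7a6 without GFP replicate 1 or GFP plus DFO replicate 2 (adjusted p from 0.0617 to 0.0683), and the rise of Slc1a3, a glutamate importer (0.82 ± 0.17) ended without GFP replicate 1 or either GFP plus DFO array (adjusted p from 0.106 to 0.119). The falls numbered 3 without GFP replicate 1 or either GFP plus DFO array. Interferon response genes stood near the share of all genes, with 3 rises and 2 falls among 24. The rises numbered 0 without either GFP plus DFO array and 1 without GFP replicate 2 or either PGC-1α array. Ifit2 and Ifi35, both induced by interferon, fell by 1.58 ± 0.17 (adjusted p = 0.00281) and 0.91 ± 0.11 (adjusted p = 0.00451), and the rises of the antigen presentation genes Tap1, Psmb9 and B2m (2.82 ± 0.70, 0.98 ± 0.20 and 0.41 ± 0.09) ended for Tap1 without either GFP plus DFO array, either PGC-1α array or either PGC-1α plus DFO array (adjusted p from 0.0683 to 0.152), for Psmb9 without either GFP array or either GFP plus DFO array (adjusted p from 0.0531 to 0.119) and for B2m without GFP replicate 2, either GFP plus DFO array or either PGC-1α array (adjusted p from 0.0577 to 0.144).

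**Figure D4:**
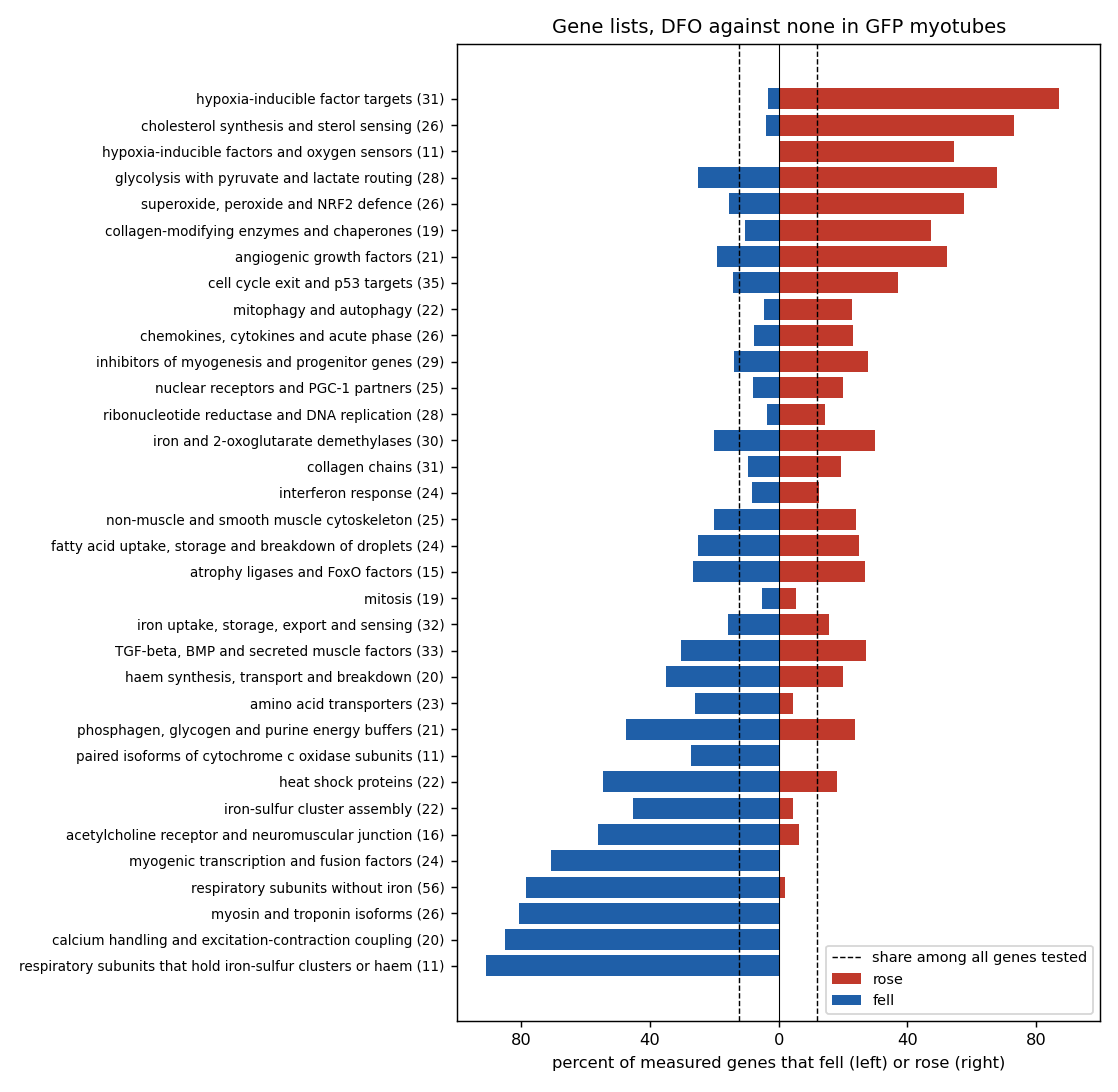
Percent of measured genes in each of 34 lists that rose (red, right) or fell (blue, left) with DFO in GFP myotubes at an adjusted p under 0.05, with the number measured in parentheses and dashed lines at the shares among all genes, 11.8% and 12.5%. HIF targets, cholesterol synthesis and glycolysis reach furthest to the right, and calcium handling, myosins and troponins and the respiratory subunits furthest to the left. Genes above the median level were called more often than the dashed lines show (3624 of the 4409 calls were among 9096 such genes), and most lists hold mainly such genes.

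Several of the largest changes above the median level lay outside these lists. Vwa1, a matrix protein, read 39.9 and 48 intensity units with GFP and 1465 and 1415 with DFO, and Stmn4, a tubulin-binding stathmin, 31.1 and 30.3 intensity units with GFP and 871 and 869 with DFO. Fosl1, the AP-1 subunit Fra-1, read 53.4 and 31.4 intensity units with GFP and 1371 and 1306 with DFO. The 3 were below the arrays' median with GFP and rose by 5.04 ± 0.12 (adjusted p = 0.000121), 4.83 ± 0.10 (adjusted p = 0.00011) and 5.03 ± 0.26 (adjusted p = 0.000376). Ier3, an early response gene, started higher, at 335 and 311 intensity units with GFP and 7924 and 7921 with DFO, and rose by 4.62 ± 0.10 (adjusted p = 0.00011). Maff, a small Maf factor, rose by 4.16 ± 0.09 (adjusted p = 0.00011), Sprr2h, a proline-rich protein of epithelia, by 4.91 ± 0.38 (adjusted p = 0.00107) and Tlcd3a, a membrane protein, by 4.16 ± 0.08 (adjusted p = 0.00011). Among the falls, Tceal7, of a family related to elongation factors, read 5127 and 5038 intensity units with GFP and 166 and 167 with DFO and fell by 4.93 ± 0.11 (adjusted p = 0.00011). C1qtnf3, a secreted C1q relative, fell by 4.31 ± 0.25 (adjusted p = 0.000495). Sarcomere and muscle membrane genes made up much of the rest: Mybph, a myosin-binding protein, fell by 4.18 ± 0.13 (adjusted p = 0.000147), Myom3, an M-band myomesin, by 3.61 ± 0.15 (adjusted p = 0.000263), and Unc45b, the myosin chaperone, by 3.61 ± 0.23 (adjusted p = 0.000647). Cavin2 of caveolae fell by 3.55 ± 0.21 (adjusted p = 0.000517), the integrin-binding melusin gene Itgb1bp2 fell by 3.50 ± 0.41 (adjusted p = 0.00363), and Iffo1, an intermediate filament relative, fell by 3.50 ± 0.20 (adjusted p = 0.000494).

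Markers of other cell types did not appear as sets. Of 6 endothelial markers 0 rose and 0 fell, and their summed intensity was 250.2 and 212 with GFP and 193 and 246 with DFO, with none above the median level. Of 6 macrophage and leukocyte markers 2 rose, Cd14, the endotoxin coreceptor and Cd68, a lysosomal protein. Cd14 went from 83.3 and 87.9 to 469.5 and 501 and rose by 2.50 ± 0.11 (adjusted p = 0.00027), and Cd68 rose by 1.34 ± 0.16 (adjusted p = 0.0038). The sum of the 6 went from 1972 and 1849.9 to 2509 and 2641. Ptprc, the pan-leukocyte antigen CD45, had 0.20 ± 0.32 (adjusted p = 0.714), and Itgam, an integrin of myeloid cells, -0.35 ± 0.24 (adjusted p = 0.367). Of 6 fibroblast markers 1 rose and 1 fell, and their sum went from 5435 and 5380.0 to 7814 and 8009.6. The sum is carried by Dcn, at 4434 and 4481 with GFP and 7129 and 7337 with DFO. The median log2 change of the 6 was -0.56. The rise was Dcn, decorin (0.70 ± 0.08, adjusted p = 0.00309), and the fall Postn, periostin (-0.55 ± 0.09), whose call ended without GFP replicate 1 or GFP plus DFO replicate 2 (adjusted p from 0.0661 to 0.0826). Adipocyte markers had 0 calls of 4 and bone and cartilage markers 1 of 4, a fall of Ibsp (-0.94 ± 0.22) that ended without either GFP array, either GFP plus DFO array or either PGC-1α plus DFO array (adjusted p from 0.0629 to 0.165). None of the adipocyte or the bone and cartilage markers was above the median level, so their few calls say little. Of the macrophage and leukocyte markers 3 of 6 were above it, and of the fibroblast markers 2 of 6. The part of any of these markers in the changes above was not tested.

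The effect of DFO in GFP myotubes was set beside that in PGC-1α myotubes, whose 4 arrays share none with it. There 4662 genes passed (25.6%), 2637 without PGC-1α replicate 1 and 3084 without PGC-1α replicate 2. Of the GFP calls, 3006 were called in the same direction with PGC-1α (68.2% of the GFP calls and 64.5% of the PGC-1α calls) and 44 in the opposite one. HIF targets had a median change of 2.01 with GFP and 1.48 with PGC-1α, calcium handling -1.61 and -2.12, and respiratory subunits without iron -0.51 and -0.27. The test of the difference between the effects called 101 genes (0.555%). That count is unstable: it was 2 and 14 without GFP replicate 1 and 2, 0 and 2 without GFP plus DFO replicate 1 and 2, 5 and 18 without PGC-1α replicate 1 and 2, and 77 and 1 without PGC-1α plus DFO replicate 1 and 2. None of the 101 differences was therefore called with every array left out in turn.

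The named genes are the 5 largest differences on each side among genes above the median level. Rgcc, a cell cycle regulator, read 105 and 103 intensity units with GFP and 749.7 and 666 with DFO and rose by 2.77 ± 0.13 (adjusted p = 0.0003), whereas with PGC-1α it read 755 and 711 without DFO and 388 and 322 with it, a change of -1.05 ± 0.13. The difference of the effects was -3.82 ± 0.18, adjusted p = 0.0104. Spsb4, a ubiquitin ligase adaptor, rose by 1.93 ± 0.22 (adjusted p = 0.0034) with GFP and had -1.12 ± 0.22 with PGC-1α (difference -3.05 ± 0.31, adjusted p = 0.0443). Bcat1, the cytosolic branched-chain aminotransferase, went from 673 and 692 to 389.5 and 395 with GFP, a fall of 0.80 ± 0.09 (adjusted p = 0.00304) by its brightest probe set (adjusted p = 0.0523 with the mean of its probe sets), and had 1.28 ± 0.09 with PGC-1α (difference 2.08 ± 0.12, adjusted p = 0.0235). Adamts4, a protease of matrix proteoglycans, fell by 2.43 ± 0.13 (adjusted p = 0.000386) and had -0.32 ± 0.13 (difference 2.12 ± 0.18, adjusted p = 0.0319), and Enpep, an aminopeptidase, fell by 1.11 ± 0.11 (adjusted p = 0.00211) and had 0.62 ± 0.11 (difference 1.74 ± 0.15, adjusted p = 0.0322). Cxcl1, a neutrophil chemokine, read 242 and 238 intensity units with GFP and 298 and 311 with DFO, a rise of 0.34 ± 0.08 that ended without either GFP array, either GFP plus DFO array or either PGC-1α array (adjusted p from 0.0665 to 0.18), but with PGC-1α it had 4.76 ± 0.08, a difference of 4.42 ± 0.11, adjusted p = 0.00186. Slc7a2, a cationic amino acid importer, had -0.35 ± 0.17 (adjusted p = 0.217) and 2.23 ± 0.17 (difference 2.58 ± 0.24, adjusted p = 0.0373).

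Other genes fell in both settings and less with GFP. Pdlim3, a Z-disc protein, read 4802 and 4884 intensity units with GFP and 832 and 772 with DFO and fell by 2.60 ± 0.08 (adjusted p = 0.000161), against -5.36 ± 0.08 with PGC-1α (difference -2.77 ± 0.12, adjusted p = 0.00937). Tmem182, a muscle membrane protein, fell by 1.96 ± 0.16 (adjusted p = 0.00124) against -4.59 ± 0.16 (difference -2.63 ± 0.23, adjusted p = 0.0319), and Ogn, a small matrix proteoglycan, fell by 2.86 ± 0.15 (adjusted p = 0.000364) against -5.41 ± 0.15 (difference -2.54 ± 0.21, adjusted p = 0.0287). Mymx, Chrng, Lrp4, Cacng1 and Acta2, described above, also fell less with GFP, with differences from -2.80 (Mymx) to -1.01 (Acta2). Mymx was below the median level and read 7.93 and 9.15 intensity units with PGC-1α plus DFO, so its difference rests on dim values. Myl2, Cox6a2 and Hspe1 fell more with GFP, with differences of 1.61, 1.26 and 1.12.

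**Figure D5:**
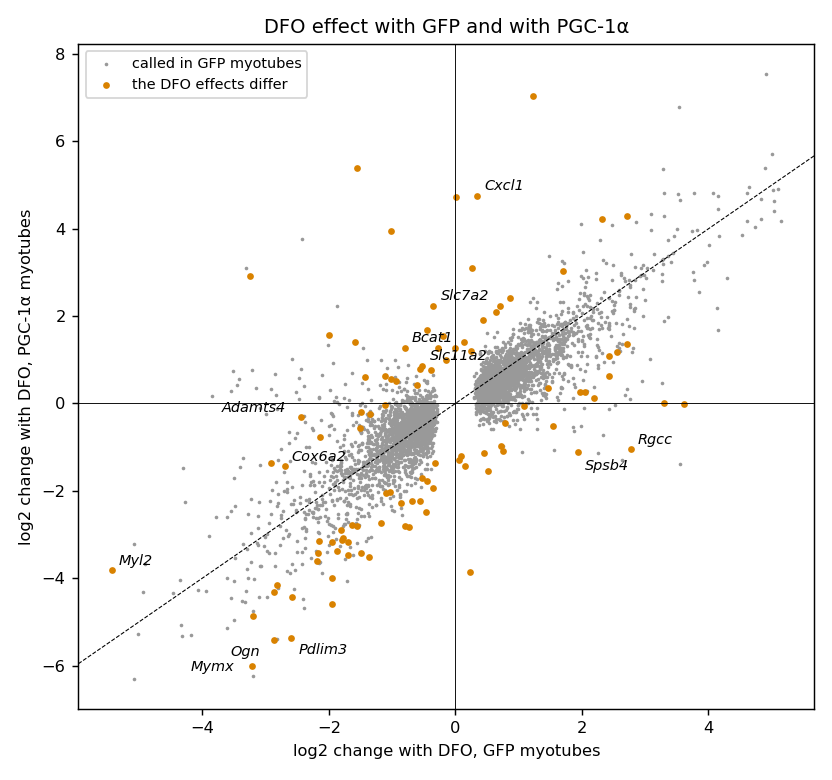
Log2 change with DFO in GFP myotubes (horizontal) and in PGC-1α myotubes (vertical), with the line of equal change dashed. Grey points are genes called in GFP myotubes, most of which lie near the line, and orange points are the 101 genes whose effects differed, among them Cxcl1 and Rgcc.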

How the data were processed

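RNA of whole cultures was hybridised to Affymetrix mouse arrays with 45101 probe sets. The authors deposited 1 linear intensity per probe set and array, and the scaling method was not given in the sources used here. Of the probe sets 34945 name 1 gene symbol, 932 several, 9160 none and 64 are controls, and 9010 of 18193 genes have more than 1. Per gene the probe set with the highest mean log2 over all 8 arrays was taken, and deposited intensities were used as log2 with no further scaling. A gene's direction can therefore rest on 1 probe set.

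A mean for each of the 4 groups was fitted to all 8 arrays in limma 3.58.1 (R 4.3.3), with Benjamini-Hochberg adjustment over all genes, and was tested on simulated data. Groups come from the arrays' titles, and the replicate numbers were checked for pairing. Alternatives were other scalings, probe set rules, filters, priors, a 4-array fit, a replicate block and each array left out. Figures used Python 3.11.15 and matplotlib 3.10.9. Promoter windows are RefSeq's on GRCm38.p6, matched by symbol, and only bases before the start are printed.

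The members and lists were chosen with earlier results of these data known. Genes named are the 12 largest rises and falls above the median level, up to 4 called members per list and all members of the oxidase isoform list. Named too are a set of standard muscle and iron genes and the 5 largest differences on each side. The iron and oxygen sensor lists are covered in full for called members, and some members that did not pass are not named. Named after their values were seen are Ache, Acta1, B2m, Cblb, Ciapin1, Cpox, Des, Fbxo32, Foxo1, Hmox2, Id3, Itgam, Loxl1, Ndufv3, Pcna, Pfkl, Pfkm, Pfkp, Prdx3, Ptprc, Serpinh1, Slc1a3 and Stc2.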

Additional observations from a re-analysis of the deposited data

Results flagged for a closer look

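For 22 named genes the effect of DFO differed between PGC-1α and GFP myotubes by limma's test of the difference itself, with adjusted p up to 0.04998. The values are the log2 change in PGC-1α myotubes minus that in GFP myotubes, each from 2 arrays a group. It was above 0 for Cxcl1 (4.42), Slc7a2 (2.58), Adamts4 (2.12), Bcat1 (2.08), Enpep (1.74), Myl2 (1.61), Lcn2 (1.54), Slc11a2 (1.39), Cox6a2 (1.26) and Hspe1 (1.12). It was below 0 for Mymx (-2.80), which was dim with PGC-1α plus DFO. So it was for Acta2 (-1.01), Lrp4 (-1.22), Srxn1 (-1.33), Cacng1 (-1.44), Postn (-1.68), Chrng (-1.84), Ogn (-2.54), Tmem182 (-2.63), Pdlim3 (-2.77), Spsb4 (-3.05) and Rgcc (-3.82). Among them Lcn2, the siderophore binder, rose by 0.71 ± 0.08 with GFP and had 2.24 ± 0.08 with PGC-1α, Slc11a2, the metal importer, had -0.52 ± 0.08 and 0.87 ± 0.08, and Srxn1, sulfiredoxin, had 2.43 ± 0.11 and 1.09 ± 0.11. No difference was called without GFP plus DFO replicate 1, and the cause of none was tested.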

How the results depend on the processing

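The duplicates share replicate numbers across groups. Deviations of same-numbered arrays correlated at 0.221 between the 2 DFO groups and at -0.11 to 0.0744 otherwise. Between GFP and GFP plus DFO the correlation was -0.0421, and the numbers were not taken as pairs. Whether the same-numbered DFO arrays share a batch was not tested. With the replicate number as a block there were 1840 rises, 2000 falls, 4037 calls in PGC-1α myotubes and 3 differences. Of 198 named calls, median centring and quantile normalization kept 198 each, poly-A spike-in scaling 168 and averaging over probe sets 169. Spike-in scaling gave 1330 falls, a share of rises among calls of 54.5% against 48.5%, and 4 differences; with 24 of its 27 probe sets, chosen after seeing the data, there were 1060 rises, 1170 falls, a share of 47.5% and 3 differences. At least 2-fold left 844 rises, 828 falls and 1866 calls in PGC-1α myotubes. The count of differences was 216 with quantile normalization, 4 with the mean of probe sets, 58 without probe sets that may match several transcripts, 1316 among genes above the median level, 450 with a floor at the 25th percentile and 1467 with a trended and robust prior. With 1 array left out, the rises ranged from 940 to 2255, the falls from 1129 to 2440, the calls in PGC-1α myotubes from 2637 to 4130 and the differences from 0 to 77. The sign of Ppargc1a turned with the mean of probe sets (-0.84), and that of Esrrb without multi-transcript probe sets (-0.16). The cause was not tested. Dim genes limit precision: the median SD of log2 values between duplicates was 0.289 and 0.212 below the median level and 0.0751 and 0.0556 above it.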
